A study of Mus musculus with 8 samples.

Results

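The transcript levels described here are those of haematopoietic stem cells from the bone marrow of wild-type mice, measured in the 4 libraries that carry the Gata2 WT genotype out of 8 in the study. The cells were sorted as LSK CD48- CD150+, that is lineage-negative cells with Sca-1 and Kit on their surface, without CD48 and with CD150. The mice were 8 to 12 weeks old and had received 6 doses of pIpC, a double-stranded RNA mimic. The study had 4 mice per genotype, and the 4 libraries are called wild type 1 to 4. The other 4 libraries carry the Gata2 heterozygote genotype with Mx1-Cre and were not compared with these. Mx1-Cre, a recombinase under an interferon-inducible promoter, is named for that genotype alone, and its presence in the wild-type mice is not stated. No library from mice without pIpC was used, so the levels below are levels after the treatment and not changes caused by it, and the sources used here give no interval between the last dose and the sort.

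Haematopoietic stem cells sit at the top of the blood hierarchy and are known for dividing rarely and for transcripts of many lineages at low level. Double-stranded RNA is sensed by TLR3 in endosomes and by RIG-I and MDA5 in the cytoplasm, and the type I interferon that follows acts through IFNAR1 and IFNAR2, the kinases JAK1 and TYK2, and a complex that contains STAT2 and IRF9 and binds interferon-stimulated response elements in promoters. Its targets include antiviral enzymes, the IFITM membrane proteins, Sca-1 itself and the machinery that presents peptides on MHC class I. Interferon is also known to push stem cells briefly into cycle.

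Between 19037864 and 22861884 fragments were assigned to genes per library, and levels are in CPM, fragment counts brought to a common library size with TMM scaling (trimmed mean of M values, which evens out composition between libraries). Levels of different genes are compared per kilobase, using the summed length of all exons of a gene, while ranks and sums in CPM give shares of the fragments, to which long genes add more. At least 1 CPM in all 4 libraries was reached by 10982 of 53715 annotated genes (20.4%), among them 9677 of 21890 protein-coding genes (44.2%). A gene that reached this level is said to pass below, and these 2 shares are the background for the counts of list members that passed. A further 31788 genes had no fragment in any of the 4. A count of 0 allows up to 3 fragments, 0.127 to 0.149 CPM depending on the library, and this limit covers counting error only. Values after ± are SDs over the 4 libraries (n = 4) throughout.

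Transcripts of all 4 sort markers were found, including the one the cells were chosen to lack. Kit, the receptor for stem cell factor (ENSMUSG00000005672.12, GRCm38 chromosome 5 from 75574916 to 75656722), had 136, 233, 155 and 146 CPM in wild type 1 to 4. Wild type 2 was the highest and the other libraries lay close together. Ly6a, which encodes Sca-1, had 89.7, 78.7, 119 and 106 CPM, higher in wild type 3 and 4 than in 1 and 2. Slamf1, which encodes CD150, had 38.7, 36.3, 19.4 and 44.3 CPM with wild type 3 at the low end. Per kilobase the order was Ly6a at 81.7 ± 14.7 CPM per kilobase, Kit at 18.8 ± 4.95 CPM per kilobase and Slamf1 at 5.63 ± 1.74 CPM per kilobase. Cd48 transcripts were present although the cells had been chosen without the protein, with 26.1, 23.4, 20.3 and 25.9 CPM and no library apart. Cd48 and Kit, neighbours in this order at 20.1 and 18.8 CPM per kilobase, did not differ beyond their spread with this length. With the longest transcript in place of all exons, Kit stood at 31.96 and Cd48 at 20.2 CPM per kilobase, so the order of these 2 genes turned with the length used.

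Most lineage antigens and most T, NK and B cell markers were at or near 0. Of 21 granulocyte and monocyte markers 9 passed, a share near the 44.2% of all protein-coding genes. Of 9 lineage antigens, 1 passed 1 CPM in all 4 libraries, namely Ptprc (CD45 and B220), which is not restricted to mature lineages, at 388 ± 58.3 CPM. Cd3e, Cd5 and Cd8a of T cells had no fragment in any library, and Ly6g of neutrophils had at most 0.146 CPM. Of 17 T and NK cell markers, 12 had no fragment in any library. The 3 that passed were Lck, a kinase of the T cell receptor, with 24.5, 8.53, 11.6 and 22.7 CPM, Klrb1c, an NK cell receptor, with 5.67, 4.66, 6.18 and 3.78 CPM, and Nkg7, a granule protein of cytotoxic lymphocytes. Nkg7 had 233, 291, 439 and 303 CPM and, at 346 ± 95.6 CPM per kilobase, was far above the other members. Of 14 B cell markers, Cd79b and Ighm passed, and Cd79b, a chain of the B cell receptor complex, made up nearly all of the list's summed level of 129 ± 11.9 CPM with 119, 106, 131 and 129.6 CPM, while its partner Cd79a had 0.186 CPM on average and Pax5 none. The granulocyte and monocyte list summed to 605, 654, 768 and 737 CPM in wild type 1 to 4, with Lyz2 (lysozyme) at 281 ± 17.9 CPM per kilobase and Prtn3 (proteinase 3) at 96.7 ± 19.05 CPM per kilobase as its highest members. Endothelial and stromal markers passed in 3 of 17 cases, Emcn, Pecam1 and Col1a2, and summed to 89.4 ± 17.2 CPM. The part that other cells, if any were sorted with the stem cells, had in these sums was not tested. In bulk RNA, fewer cells of a type and less RNA per cell cannot be told apart.

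A small number of genes held much of the RNA. The 100 most abundant genes of a library took 21.3 ± 1.89% of its fragments (SD, n = 4) and the 1000 most abundant took 57.5 ± 2.81%. Actb, cytoplasmic actin, took the largest mean share of fragments with 8593, 7236, 10919 and 8966 CPM, and mt-Cytb, the mitochondrial cytochrome b, the next with 3789, 4229, 9297 and 10610.5 CPM, where wild type 3 and 4 were more than 2 times wild type 1 and 2. H3f3b (histone H3.3), B2m (the light chain of MHC class I), Tubb5 (tubulin), Eef1a1 (translation elongation), Cnbp, Canx (the chaperone calnexin), Hsp90ab1, Pfn1 (profilin), Ubb (ubiquitin), Slc25a5 (the mitochondrial ADP/ATP carrier), Car2 (carbonic anhydrase 2), Ptp4a2 and Rplp0 completed the first 15, the last at 3129.9 ± 348 CPM. Per kilobase B2m led with 6229 ± 595 CPM per kilobase from 4938, 4895, 5863 and 5733 CPM, and its coefficient of variation of 9.56% lay under the median of 15.7% for genes of at least 1000 CPM. Of the 15 highest genes per kilobase, Rpl32, Rps14, Rplp0 and Rplp1 encode ribosomal proteins, and ribosomal proteins made up 13 of the first 50. Car2 at 1376 ± 98.4 CPM per kilobase was far higher than the usual reference gene Gapdh at 38.8 ± 8.11 CPM per kilobase. Gapdh has many processed pseudogenes, and fragments that map to several places were not counted, which lowers such genes by an amount that was not measured.

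**Figure D1:**
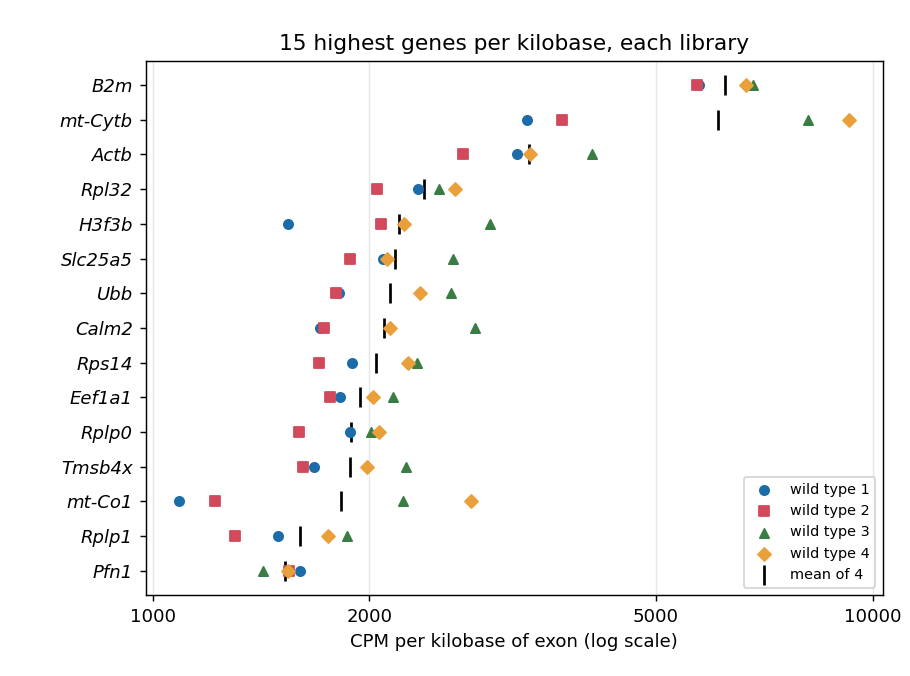
Level per kilobase of exon (horizontal axis, log scale) of the 15 highest genes in each of the 4 wild-type libraries (coloured markers) with the mean (black bar). B2m leads at 6229 CPM per kilobase, and for mt-Cytb and mt-Co1 wild type 3 and 4 stand to the right of wild type 1 and 2.

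Genes known to mark stem cells were nearly all detected. Of 20 identity genes, 19 passed 1 CPM in all 4 libraries, with a median of 12.9 CPM per kilobase. Ifitm3 and Ifitm1, interferon-inducible membrane proteins that stem cells are known to express, stood highest with 896 ± 83.2 CPM per kilobase and 691 ± 89.9 CPM per kilobase, followed by Apoe (apolipoprotein E) with 368 ± 47.5 CPM per kilobase. Among the transcriptional regulators of the list, the homeobox gene Meis1 had 654, 750.3, 567 and 697 CPM. The leucine zipper gene Hlf had 237, 236, 191 and 221 CPM. Mecom, which encodes EVI1, had 66.3, 103, 55.8 and 74.4 CPM. Each was present in all libraries with less than 2 times between the lowest and the highest. Fgd5, a guanine nucleotide exchange factor, was the member that did not pass, with 2.12, 3.27, 2.09 and 0 CPM. Hoxb5 had 6.55 ± 1.69 CPM and Prdm16 had 6.81 ± 4.07 CPM. Of 18 members averaging 5 CPM or more, Gprasp2 alone had 4 times or more between its lowest and highest library. That is 1 of 18, against 7.6% of the 9530 genes at that level. Gprasp2 had 16.3, 25.7, 18.3 and 3.10 CPM with wild type 4 lowest. The share of all genes falls with level, from 20.3% at 5 to 16 CPM to 3.52% from 16 to 100 and 0.322% from 100 to 1000. Here and below, the 7.6% is therefore not matched to the level of a list.

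Of 17 surface proteins of stem cells, 16 passed, the tetraspanins Cd81, Cd9 and Cd63 being the highest at 290.4, 238 and 177 CPM per kilobase. Procr, the endothelial protein C receptor also called EPCR, had 27.9, 35.3, 46.4 and 40.5 CPM, highest in wild type 3. Neo1 (neogenin) was the 1 member that did not pass, at 0.145 CPM on average.

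Of 38 blood transcription factors, 35 passed. Lmo2, a LIM-only bridging protein of the GATA and TAL1 complex, was highest at 296 ± 18.8 CPM per kilobase, and Nfe2, Fli1 and Klf6 followed at 167, 95.7 and 77.5 CPM per kilobase. Nfe2, a basic leucine zipper factor of megakaryocytes and red cells, had 658, 555, 303 and 482 CPM, with wild type 3 lowest. Gata2 (chromosome 6 from 88193891 to 88207032), the gene under study, had 30.8, 46.3, 29.6 and 39.3 CPM and 6.76 ± 1.45 CPM per kilobase, below the list's median of 10.3. Klf1, the erythroid factor, had 31.9, 14.2, 3.75 and 29.4 CPM, a range of 8.52 times that came from the low value of wild type 3, and Foxo1 had 6.13, 2.38, 20.2 and 7.82 CPM, where the same library was the highest, and these were the 2 of 32 members that spanned 4 times, against 7.6% of all genes averaging 5 CPM or more. The myeloid factors Cebpa and Cebpb were the lowest members at 0.243 and 0.340 CPM per kilobase.

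Of 23 cytokine receptor genes, 18 passed. Ifngr1, a chain of the interferon gamma receptor, was highest at 57.4 ± 3.33 CPM per kilobase. Kit stood at 18.8 and Il11ra1 at 17.8 CPM per kilobase. Il7r of lymphoid progenitors had no fragment in any library, and Csf1r of monocytes had 0.296, 1.19, 0.924 and 0.0899 CPM. Flt3, which marks multipotent progenitors, had 5.29, 8.93, 8.27 and 6.16 CPM, low in all 4. Of 18 adhesion and homing genes, 14 passed, led by Itgb1 (integrin beta 1), Cd44 and Emb at 63.9, 34.1 and 22.5 CPM per kilobase. Itgb2, the leukocyte integrin chain, had the widest range of the 13 members with a mean of at least 5 CPM at 5.07 times, from 63.6, 41.01, 12.6 and 29.1 CPM. Cdh2 (N-cadherin) was the lowest per kilobase with 0, 0, 1.41 and 0.0899 CPM. Of 17 multipotent progenitor genes, 11 passed, among them Plac8 at 179 ± 61.5 CPM per kilobase and Cd53 at 105 ± 28.9 CPM per kilobase.

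**Figure D2:**
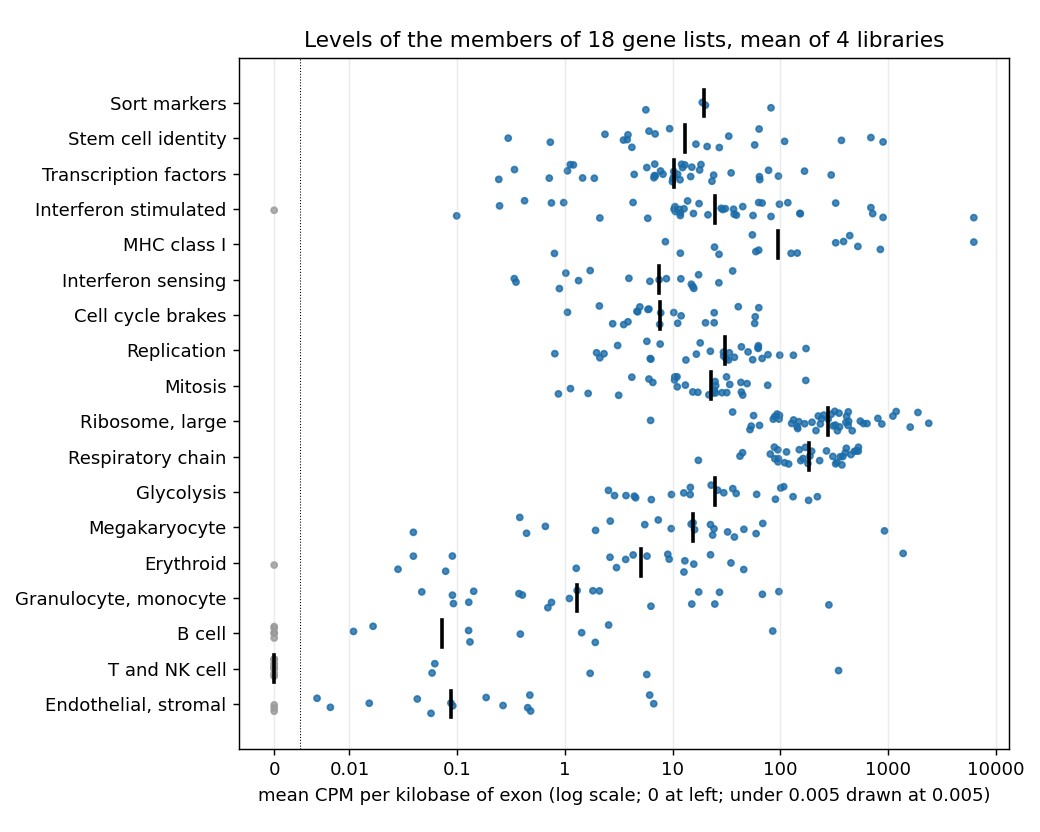
Mean level per kilobase of exon over the 4 libraries (horizontal axis, log scale, genes with no fragment in grey at the left) of each member of 18 gene lists (rows), with the list's median as a black bar. Large ribosomal subunit genes centre on 277 CPM per kilobase, stem cell identity genes on 12.9, and most T and NK cell markers lie at 0.

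The parts of interferon sensing were present at moderate level. The receptor chains Ifnar2 and Ifnar1 had 7.48 ± 2.33 CPM per kilobase and 3.92 ± 1.70 CPM per kilobase, and Ifnar1 had 32.2, 26.2, 8.85 and 24.9 CPM with wild type 3 lowest. The kinase gene Jak1 was the highest of the list at 36.00 ± 6.09 CPM per kilobase, and Tyk2, its partner at the receptor, stood at 0.888 ± 0.329 CPM per kilobase. Of the complex that carries the signal to the nucleus, Irf9 had 152, 151, 114 and 161 CPM, a range of 1.42 times between libraries. Stat2 had 9.69, 6.64, 10.9 and 4.40 CPM. Per kilobase Stat2, at 1.34, was below Irf9, at 26.8. Of the feedback inhibitors, Usp18 had 63.5, 36.3, 29.3 and 46.02 CPM and Socs1 had 6.35, 2.48, 0.730 and 2.29 CPM, both highest in wild type 1. Irf7, the interferon-inducible amplifier of the response, had 12.6, 3.12, 2.34 and 7.82 CPM, a range of 5.40 times with wild type 1 highest again. Of the 17 genes 14 passed 1 CPM in every library, and Socs1, Socs3 and Irf8 did not. Of 11 genes of double-stranded RNA sensing, 8 passed. Ifih1, which encodes MDA5, had 120.1, 81.6, 74.4 and 69.6 CPM and Ddx58, which encodes RIG-I, had 39.3, 51.8, 50.4 and 41.5 CPM, while Tlr3, the endosomal sensor of pIpC, had 1.69, 2.73, 0 and 3.33 CPM with no fragment in wild type 3.

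Of 40 interferon-stimulated genes, 35 passed in all 4 libraries, against 20.4% of all genes and 44.2% of protein-coding genes, and the list had a median of 24.7 CPM per kilobase. Members with a fragment ran from 0.0988 (Mx2) to 6229 (B2m) CPM per kilobase. B2m was at the top, then Ifitm3, Ifitm2 and Ifitm1 at 896, 718 and 691 CPM per kilobase and Psmb8, a subunit of the immunoproteasome, at 325. Isg15, the ubiquitin-like modifier, had 29.8, 28.7, 42.5 and 34.02 CPM. Oas1a, which makes the activator of RNase L, had 56.7, 53.9, 55.4 and 53.5 CPM, nearly the same in every library. Ifit1, which binds foreign RNA, had 43.5, 17.5, 30.9 and 33.3 CPM and Rsad2 (viperin) had 39.1, 70.3, 65.7 and 45.6 CPM. The antiviral GTPase genes Mx1 and Mx2 were lowest per kilobase, Mx1 with no fragment in any library (chromosome 16 from 97447035 to 97462907) and Mx2 with 0, 1.34, 0 and 0.0899 CPM. Why they were low was not tested. Oas2 had 4.40, 0, 0 and 0 CPM, all of it in wild type 1. Among the 34 members with a mean of at least 5 CPM, 1 differed at least 4 times between its highest and lowest library, against 7.6% of all genes at that level. That gene was Ifit3, with 10.7, 5.70, 11.5 and 2.02 CPM.

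MHC class I presentation was detected throughout, with 16 of 16 genes past 1 CPM in all libraries and a median of 94.2 CPM per kilobase. After B2m came the folding chaperones Canx and Pdia3 at 845 and 523 and the heavy chains H2-D1 and H2-K1 at 439 and 385 CPM per kilobase. H2-D1 had 1396, 1443, 579.8 and 1114 CPM, lowest in wild type 3, and H2-K1 had 1049, 1032, 922 and 1014 CPM with no library apart. The heavy chain genes resemble each other closely, fragments that map to several of them were not counted, and their levels are uncertain. Tap2, the peptide transporter, had 37.5, 36.5, 9.78 and 45.5 CPM and was the 1 of 16 members that spanned 4 times, against 7.6% of all genes averaging 5 CPM or more. Nlrc5, the activator of class I genes, was lowest at 0.798 CPM per kilobase.

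Promoters of the interferon-stimulated genes often held letters that resemble the binding site of the STAT and IRF complex. The 300 bases from 250 before to 50 after the RefSeq start (GRCm38.p6) were searched on both strands for GAAANNGAA, where N is any base, and it was found in 18 of 33 promoters of the list that could be matched (54.5%), against 8.36% of 16496 protein-coding promoters. The 3 members highest per kilobase with a match before the start are shown to let the position be seen, each as the 250 bases before the start, 5′ to 3′ in the direction of the gene, with the match in capitals. They are B2m at chr2:122147437-122147686, plus strand, Ifitm2 at chr7:140955962-140956211, minus strand and Igtp at chr11:58199306-58199555, plus strand.
B2m: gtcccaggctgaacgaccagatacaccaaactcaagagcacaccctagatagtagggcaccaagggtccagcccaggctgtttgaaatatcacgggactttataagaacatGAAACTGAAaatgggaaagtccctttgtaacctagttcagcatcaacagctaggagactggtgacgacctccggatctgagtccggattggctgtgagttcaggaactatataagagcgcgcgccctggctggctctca
Ifitm2: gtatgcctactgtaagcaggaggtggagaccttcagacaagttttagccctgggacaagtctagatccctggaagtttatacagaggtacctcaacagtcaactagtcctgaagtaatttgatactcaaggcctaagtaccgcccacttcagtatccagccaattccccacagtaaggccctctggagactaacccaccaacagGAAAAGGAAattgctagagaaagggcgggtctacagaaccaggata
Igtp: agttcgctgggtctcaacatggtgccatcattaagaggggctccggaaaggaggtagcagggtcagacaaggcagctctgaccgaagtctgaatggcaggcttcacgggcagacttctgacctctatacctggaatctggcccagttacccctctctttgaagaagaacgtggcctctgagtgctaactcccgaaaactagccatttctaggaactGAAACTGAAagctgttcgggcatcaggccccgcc
The match begins 139 bases before the start in B2m, 46 before it in Ifitm2 and 34 before it in Igtp, an interferon-inducible GTPase with 349, 291, 265 and 330.1 CPM. The nearest match reads the same in B2m and Igtp. The members with a match had a median of 29.9 CPM per kilobase and ranged from 0.973 (Oas3) upwards, and the 15 without one had a median of 17.6, so the 2 sets overlapped. A match describes letters and is no binding site by itself.

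The cells held transcripts of cell cycle brakes and of the replication and division machinery side by side. All 22 genes of the list of cell cycle brakes and early cell cycle regulators passed 1 CPM in all 4 libraries, with a median of 7.65 CPM per kilobase. The D cyclin Ccnd2 was highest at 62.9 ± 11.2 CPM per kilobase, ahead of Ccnd1 at 11.97 and Ccnd3 at 2.77. Among the inhibitors of cyclin-dependent kinases, Cdkn2d (p19) had 84.4, 115, 80.6 and 87.2 CPM and Cdkn1b (p27) had 33.5, 23.3, 43.6 and 40.4 CPM. The libraries of these 2 genes lay within 2 times of each other. Cdkn1c (p57) had 23.1, 22.2, 8.66 and 7.82 CPM, in a higher pair, wild type 1 and 2, and a lower pair, wild type 3 and 4. Cdkn1a (p21) had 4.19, 4.61, 6.96 and 2.79 CPM. Txnip, which restrains glucose uptake, had 119, 146.9, 176 and 278 CPM.

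All 30 replication genes and all 30 mitosis genes also passed in every library, with medians of 30.5 and 22.6 CPM per kilobase. Pcna, the sliding clamp, had 378, 379, 513 and 388 CPM, with wild type 3 above the other three. Mcm6 of the replicative helicase had 656, 769, 555 and 480.2 CPM and Rrm2, the ribonucleotide reductase subunit made in S phase, had 294, 180.1, 191 and 184 CPM. Mcm10, a replication initiation factor, and E2f1, a transcription factor of the S phase genes, were the 2 of 29 that spanned 4 times, against 7.6% of all genes averaging 5 CPM or more. Mcm10 had 19.97, 26.03, 13.4 and 1.03 CPM with wild type 4 lowest. Of the mitosis genes, Ccnb2 (cyclin B2) was highest at 172 ± 29.7 CPM per kilobase, with 326, 257, 250.5 and 218 CPM. Cdc20, the activator of the anaphase-promoting complex, and Birc5 (survivin) followed at 76.1 and 48.99 CPM per kilobase. Top2a had 385, 355, 456 and 366 CPM, and Mki67, the gene of the proliferation antigen Ki-67, had 15.9, 4.31, 32.4 and 13.3 CPM, a range of 7.52 times. Plk1 had 23.8, 12.4, 2.09 and 19.2 CPM, and Plk1 and Mki67 were the 2 of 30 members that reached 4 times between libraries. Both shares lay near the 7.6% of all genes. The levels are averages over all sorted cells and do not give the share of cells in cycle.

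Promoters of mitosis genes held the CCAAT box, the binding site of NF-Y, in 21 of 26 matched cases (80.8%) against 38.7% of all protein-coding promoters, searched as CCAAT on both strands. The share was 60.9% for the replication list and 78.6% for the MHC class I list. The promoter of Ccnb2 (chr9:70421555-70421804, minus strand) is shown as the highest mitosis gene with a match, again as the 250 bases before the start, with the matches in capitals.
Ccnb2: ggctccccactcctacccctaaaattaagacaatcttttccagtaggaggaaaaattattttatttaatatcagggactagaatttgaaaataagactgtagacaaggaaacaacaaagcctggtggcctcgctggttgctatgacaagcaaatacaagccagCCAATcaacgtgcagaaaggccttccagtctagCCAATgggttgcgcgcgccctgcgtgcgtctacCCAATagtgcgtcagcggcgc
It holds 3 matches, the nearest 21 bases before the start, and none of the 26 mitosis promoters held TATAAA, against 12.8% of all promoters. The TATAAA share was also 0% for the stem cell identity, nuclear respiratory chain and apoptosis lists. Among protein-coding genes with fragments it was 5.36% to 9.45%, depending on the level.

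Ribosomal protein genes were among the most abundant transcripts. All 47 genes of the large subunit and all 32 of the small subunit passed, with medians of 277 and 437 CPM per kilobase, and the lists summed to 31179 ± 3653 CPM and 27853 ± 4041 CPM (SD, n = 4). The small subunit list had 26487, 22778, 31641 and 30504 CPM in wild type 1 to 4, lowest in wild type 2, and all 32 members were lowest in that library. In the large subunit list 41 of 47 members were lowest in wild type 2, against 3134 of 12038 genes overall. Rpl32 was the highest member at 2378 ± 251 CPM per kilobase and Rps14 the highest of the small subunit at 2045 ± 299.6 CPM per kilobase, and Rpl24 the lowest at 6.23. Members with many pseudogenes lose fragments that map to several places, so the order within the lists is uncertain. Of the translation genes 19 of 19 passed, led by Eef1a1 at 1939 ± 182 CPM per kilobase and Eif5a at 1017 ± 262 CPM per kilobase.

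The sequence CCGGAAG, a core site of ETS family factors, lay in 10 of 24 matched small subunit promoters and 13 of 34 large subunit promoters (41.7% and 38.2%), against 12.3% of all protein-coding promoters. Among the 560 protein-coding genes at 100 CPM per kilobase or more, the class that holds both lists' medians, the share was 24.8%. Rps3a1 (chr3:86142669-86142918, minus strand), with 828, 739.7, 1111 and 909 CPM, is shown as the highest member of the small subunit with the match before the start, in the same form.
Rps3a1: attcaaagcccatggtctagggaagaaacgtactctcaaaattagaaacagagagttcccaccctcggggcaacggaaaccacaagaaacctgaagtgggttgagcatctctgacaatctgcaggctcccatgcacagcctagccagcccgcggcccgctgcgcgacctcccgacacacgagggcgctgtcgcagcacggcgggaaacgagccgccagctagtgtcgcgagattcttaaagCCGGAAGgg
Its match begins 9 bases before the start, and the members with and without a match had medians of 437 and 449.8 CPM per kilobase in the small subunit. In the large subunit the medians were 349 with a match and 224 without.

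Nuclear genes of the respiratory chain had a higher median per kilobase than those of glycolysis, by an uncertain amount. In either list, members with pseudogenes can lose fragments that map to several places, and this loss was not measured. All 34 respiratory genes and all 22 glycolysis genes passed, with medians of 184 and 24.4 CPM per kilobase. The short genes Ndufa1, Cox8a and Ndufa2 led the former at 529, 527 and 507 and Ldha and Ldhb, the lactate dehydrogenases, led the latter at 220.1 and 182 CPM per kilobase. Ldha had 800.0, 823, 554 and 736 CPM and Pkm, pyruvate kinase, had 371, 422, 154 and 255 CPM, both lowest in wild type 3. Pfkl, a phosphofructokinase, had 124, 148, 37.02 and 80.5 CPM, which reached 4 times between wild type 2 and 3, as did Pfkm with 18.7, 22.9, 4.38 and 12.8 CPM. They were 2 of 22 glycolysis genes, against 7.6% of all genes averaging 5 CPM or more. The 15 mitochondrially encoded genes summed to 8469.8, 9206, 17804 and 21028 CPM in wild type 1 to 4, which made wild type 3 and 4 about 2 times as high as wild type 1 and 2. mt-Co1 had 1681, 1886, 3445 and 4277 CPM and mt-Nd1 had 489.5, 585, 1075 and 1382 CPM in the same arrangement. mt-Co2, mt-Co3, mt-Atp6, mt-Atp8 and mt-Nd4l were listed at 2 CPM or less in every library although they share long precursor RNAs with the abundant genes. Fragments that map to more than one place, such as a nuclear copy of mitochondrial DNA, were not counted, so the sum is not the mitochondrial content. Their part in these low values was not tested.

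Of the lineage lists, that of megakaryocytes and platelets had the largest share of members past 1 CPM in all libraries, 18 of 21. Pf4 (platelet factor 4), which also acts on stem cells as a secreted signal, was at rank 34 of all genes per kilobase with 924 ± 231 CPM per kilobase, from 511, 535, 827 and 791 CPM. Mmrn1 (multimerin 1) had 327, 525, 489 and 267 CPM and Plek (pleckstrin) had 279, 339, 196 and 252 CPM. Itga2b (CD41) had 54.2, 66.4, 35.7 and 54.9 CPM. Vwf (von Willebrand factor), which marks platelet-primed stem cells, had 27.5, 38.4, 31.8 and 25.8 CPM, close together in all 4 libraries. The late platelet genes Tubb1 and Gp6 were low, Tubb1 with 1.69, 0.545, 0.146 and 0.0899 CPM and Gp6 with a signal in wild type 3 only. Gp5, a part of the von Willebrand factor receptor, had the widest range of the 17 members with a mean of at least 5 CPM, 4.12 times from 51.1, 47.9, 12.4 and 28.8 CPM. AGATAA, a site of GATA factors, lay in 5 of 16 matched promoters of this list (31.2%), against 9.70% of all protein-coding promoters. It lay in 7 of 15 of the erythroid list (46.7%) and 5 of 11 of the mast cell, basophil and eosinophil list (45.5%). The share was 22.2% for the dendritic list and 17.6% for granulocytes and monocytes. For T and NK cells it was 8.33% and for B cells 0%. F2rl2, a thrombin receptor of the PAR family with 90.95, 85.9, 111 and 85.8 CPM (chr13:95696670-95696919, plus strand), is shown as the highest megakaryocyte gene with the match before the start.
F2rl2: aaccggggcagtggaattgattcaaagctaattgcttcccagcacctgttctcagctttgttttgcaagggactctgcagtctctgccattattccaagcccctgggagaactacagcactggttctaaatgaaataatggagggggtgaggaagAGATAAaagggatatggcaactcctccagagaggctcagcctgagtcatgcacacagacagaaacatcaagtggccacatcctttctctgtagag
The match begins 95 bases before the start.

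Of 20 erythroid genes that could be matched, 12 passed, and Car2 alone took most of the list's fragments, which summed to 3672 ± 241 CPM. Car1, the erythroid carbonic anhydrase, had 42.3, 21.8, 22.5 and 86.7 CPM with wild type 4 highest. The haemoglobin genes were low. Hbb-bt, Hbb-bs, Hba-a1 and Hba-a2 reached at most 25.04 CPM in any library, and as closely similar pairs they lose fragments that map to both. Alas2, the first enzyme of haem synthesis in red cells, had at most 0.292 CPM, and Slc4a1 (band 3) had no fragment. Of 14 mast cell, basophil and eosinophil markers, 2 passed, the protease Cpa3 with 14.5, 29.8, 40.7 and 31.1 CPM and Gata2, and 6 had no fragment. Of the dendritic list 7 of 12 passed, with the MHC class II genes Cd74 and H2-Ab1 at 514 ± 120.2 CPM per kilobase and 279 ± 72.8 CPM per kilobase, while Itgax (CD11c) and Siglech had no fragment in any library. Cd74 had 541, 630.0, 816 and 912 CPM and H2-Eb1 had 67.4, 59.9, 86.4 and 146 CPM, wild type 4 being highest for both.

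Immediate early and stress genes differed widely between libraries. Of 14 members with a mean of at least 5 CPM, Fos, Dusp1, Zfp36, Hsph1 and Egr1 reached 4 times between libraries, which is 5 of 14, against 7.6% of all genes at that level. Fos, a component of AP-1 that cells induce within minutes (chromosome 12 from 85473890 to 85477273), had 221, 637, 12.8 and 94.6 CPM, a range of 49.8 times. Dusp1, a phosphatase that switches off MAP kinases, had 658, 1809, 106 and 405 CPM. Wild type 2 was highest and wild type 3 lowest for both. Zfp36, which destabilises cytokine mRNAs, had 50.8, 134, 12.3 and 26.8 CPM and Ier2 had 197, 365, 96.2 and 130.2 CPM, in the same arrangement. Egr1 had 18.3, 49.1, 8.37 and 9.08 CPM, with wild type 2 again highest. Jun was flatter with 101, 169, 107 and 61.3 CPM. The heat shock genes of the list had another arrangement. Hsp90aa1 had 851, 918, 1661 and 989 CPM and Hsph1 had 86.9, 87.5, 133 and 20.99 CPM, wild type 3 being highest, and Hspa1a and Hspa1b were low in all libraries, 2.03 and 2.47 CPM on average. Hspa1a and Hspa1b are near-identical, so their levels are uncertain. TGACGTCA, the full cyclic AMP response element, lay in 1 of 16 matched promoters of the list, that of Dusp1 (chr17:26508473-26508722, minus strand), and in 2.43% of all protein-coding promoters. It is shown because Dusp1 is among the genes with the widest spread.
Dusp1: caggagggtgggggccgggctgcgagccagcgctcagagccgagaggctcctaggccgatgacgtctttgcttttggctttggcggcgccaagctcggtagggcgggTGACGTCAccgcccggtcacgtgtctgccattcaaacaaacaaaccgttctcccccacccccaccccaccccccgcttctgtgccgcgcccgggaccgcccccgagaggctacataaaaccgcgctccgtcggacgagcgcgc
The match begins 143 bases before the start.

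Across all genes, promoter letters differed with level. Of 5662 matched protein-coding genes with no fragment in the 4 libraries, 2.56% held the ETS site CCGGAAG (95% Wilson interval 2.18 to 3.01), and of 560 genes at 100 CPM per kilobase or more 24.8% did (21.4 to 28.6). The GC box GGGCGG lay in 21.8% of the genes with no fragment and in 55.7%, 65.96%, 63.4% and 64.3% of genes below 1, from 1 to 10, from 10 to 100 and at 100 CPM per kilobase or more, so that the step was between genes without and with a fragment. TATAAA went the other way, from 23.05% of the genes with no fragment to 5.36% of those from 1 to 10, and it stood at 9.29% in the highest class. AGATAA lay in 14.9% of the genes with no fragment and 5.71% of the highest. The median ratio of observed to expected CpG in the window was 0.214 for genes with no fragment and 0.629, 0.771, 0.792 and 0.802 for the 4 classes with fragments. Base composition and motifs move together here, and genes are not independent replicates, so these are descriptions. Exon length was not even either, with medians of 5024 bases from 1 to 10 and 1992 bases at 100 CPM per kilobase or more.

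**Figure D3:**
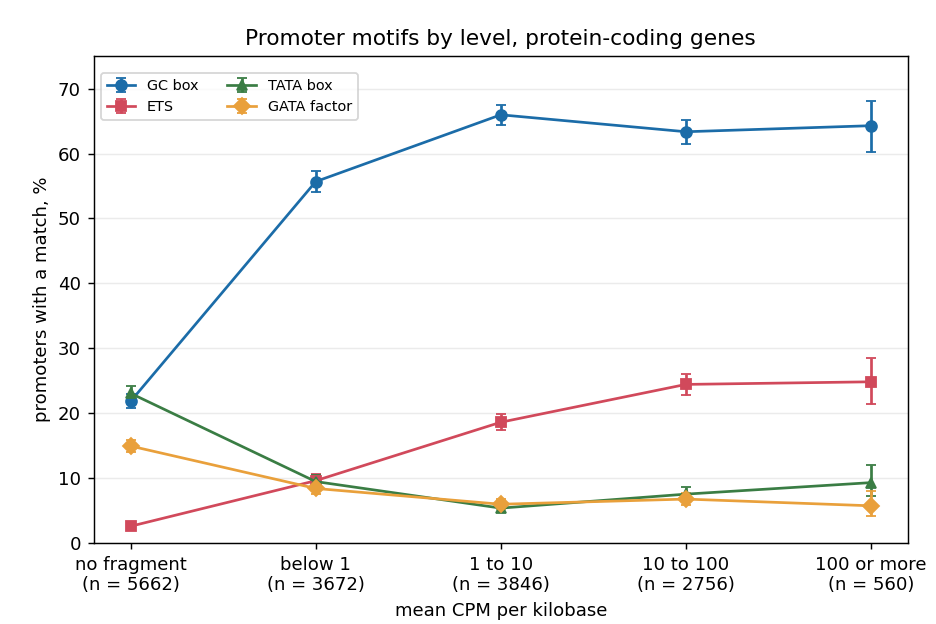
Share of protein-coding promoters with a match (vertical axis, %) for 4 motifs by mean level per kilobase (horizontal axis, number of genes below each class), with 95% Wilson intervals as bars. The GC box goes from 21.8% of genes with no fragment to between 55.7% and 65.96% of genes with one, the ETS site from 2.56% to 24.8%, and the TATA box and the GATA site are most frequent where no fragment was seen.

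The spread between the 4 libraries was small for abundant genes and wide for rare ones. Differences between mice, between sorts and between library preparations cannot be told apart in it. The median coefficient of variation (SD over mean) was 15.7% for 102 genes of 1000 CPM or more, 15.8% from 100 to 1000 CPM, 23.2% from 16 to 100, 36.98% from 5 to 16 and 57.4% from 1 to 5 CPM. Counting error alone would give 0.531%, 1.56%, 3.44%, 7.11% and 14.4%, less than the median spread in every class. The biological coefficient of variation estimated by edgeR was 0.357 over 12038 genes kept. Pearson correlations of log2 CPM across those genes were 0.936 to 0.962 over the 6 pairs of libraries, as a description across genes. Every pair differed by more than counting noise (chi-square divided by degrees of freedom of 29.6 or more), so no library was treated as a second copy of another. This does not bear on whether the samples are independent.

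**Figure D4:**
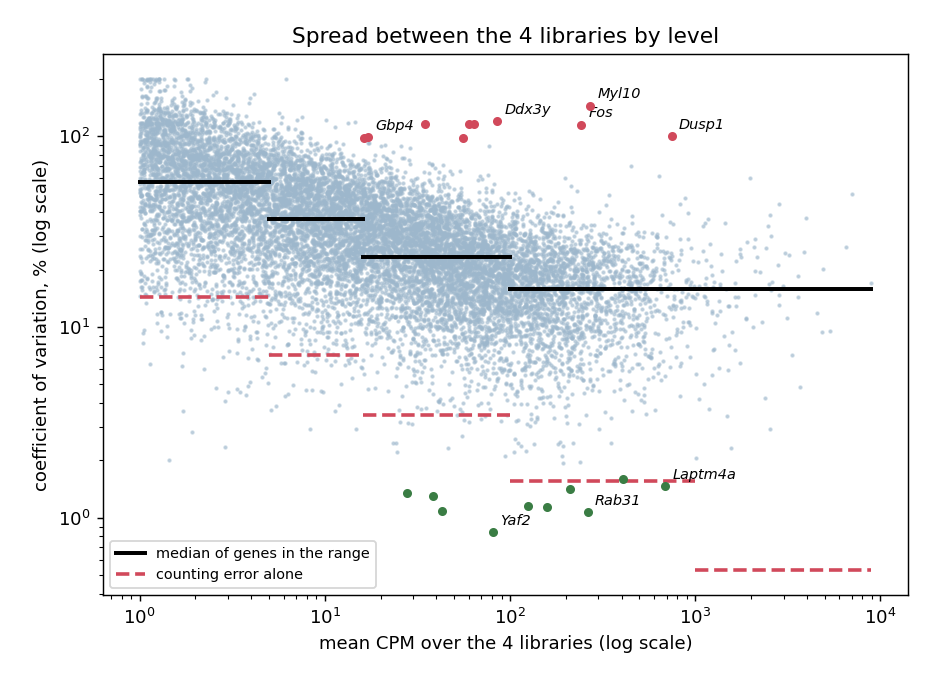
Coefficient of variation over the 4 libraries (vertical axis, %, log scale) against mean CPM (horizontal axis, log scale) of each gene averaging 1 CPM or more, with the median per class (black), the value counting error alone would give (dashed red), and the 10 widest (red) and 10 steadiest (green) genes of at least 16 CPM. The median goes from 57.4% at 1 to 5 CPM to 15.7% at 1000 CPM or more and lies above counting error in every class.

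Among genes averaging 16 CPM or more, Myl10, a myosin light chain (chromosome 5 from 136693146 to 136701094), was the least even, with 166, 22.2, 45.4 and 851 CPM and a coefficient of variation of 144%. Wild type 4 had the most, 38.4 times wild type 2. Ddx3y, Uty and Eif2s3y of the Y chromosome and Xist of the inactive X chromosome came next and divided the mice by sex. Xist had 121, 0, 0 and 134 CPM and Ddx3y had 0, 135, 205 and 0 CPM, so wild type 1 and 4 carried the female pattern and wild type 2 and 3 the male one. Fos and Dusp1 followed, then Gbp4, an interferon-inducible GTPase, with 9.77, 7.34, 9.10 and 42.7 CPM, Fam53a with 14.3, 39.2, 5.79 and 5.53 CPM and Zfp36. The steadiest was Yaf2, a component of Polycomb complexes, with 81.8, 81.1, 80.2 and 81.4 CPM and a coefficient of variation of 0.843%, under the 2.39% of counting error. Rab31, Mrps35, Ndufa10, Prelid3b, Rfesd, Uxt, Copb2, Laptm4a and Rab1a completed the 10 steadiest, with values up to 1.595%. With 4 values per gene and 6774 genes of this level, some fall close together by counting alone, and Laptm4a, a lysosomal membrane protein with 685, 681, 686 and 703 CPM, and Rab1a, a GTPase of the secretory pathway with 398, 410.3, 413 and 406 CPM, were the 2 of the 10 whose variation was above their own counting error of 0.819% and 1.07%.

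The libraries departed from their common mean in the medians of several lists, in some of them with few exceptions and in others with many. The median log2 difference of a list from the mean of the 4 libraries is given for wild type 1 to 4 in order, where the same over all 12038 genes kept was 0.02, 0.01, 0.00 and 0.01. The small and large ribosomal subunit lists had -0.06, -0.28, 0.19 and 0.15 and -0.02, -0.27, 0.19 and 0.14, the nuclear respiratory chain -0.04, -0.15, 0.18 and 0.10 and the mitochondrial genome -0.64, -0.44, 0.40 and 0.69. Wild type 3 and 4 were above 0 and wild type 1 and 2 below it in each of these lists. Wild type 2 was the lowest library for 32 of 32 small and 41 of 47 large subunit genes, against 3134 of all 12038. Glycolysis had 0.21, 0.21, -0.30 and 0.02, stem cell surface genes 0.04, 0.32, -0.37 and 0.01 and interferon sensing 0.23, 0.11, -0.33 and 0.13, each lowest in wild type 3 by the median. That library was the lowest for 11 of 22, 9 of 16 and 11 of 15 of their genes kept, against 3761 of all 12038. The interferon-stimulated genes lay close to 0 with 0.03, -0.08, 0.07 and 0.06, and the negative value of wild type 2 became 0.00526 with library sizes alone. Replication had 0.20, 0.32, -0.14 and -0.16 and mitosis 0.27, -0.11, -0.01 and 0.02, so wild type 1 was high in both and wild type 2 in the former only. By the median wild type 4 was highest for the erythroid list, with 0.11, -0.19, -0.04 and 0.75, and lowest for the imprinted list, with 0.15, 0.19, 0.07 and -0.58. It was the highest library for 9 of 14 erythroid genes kept and the lowest for 7 of 9 imprinted genes kept. Over all 12038 genes it was the highest for 2506 and the lowest for 2575. Wild type 3 had the highest median for granulocyte and monocyte genes, with -0.30, -0.19, 0.68 and 0.10. Of the 9 kept, 5 were highest in wild type 3, 3 in wild type 4 and 1 in wild type 2. Over all 12038 genes, 3665 were highest in wild type 3. Among the 5 were S100a8 with 34.9, 30.6, 93.2 and 29.9 CPM, S100a9 with 9.48, 7.93, 31.1 and 8.18 CPM and Ngp with 11.5, 18.7, 45.1 and 9.84 CPM, which neutrophils make in quantity. The part of neutrophils in wild type 3 was not tested.

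**Figure D5:**
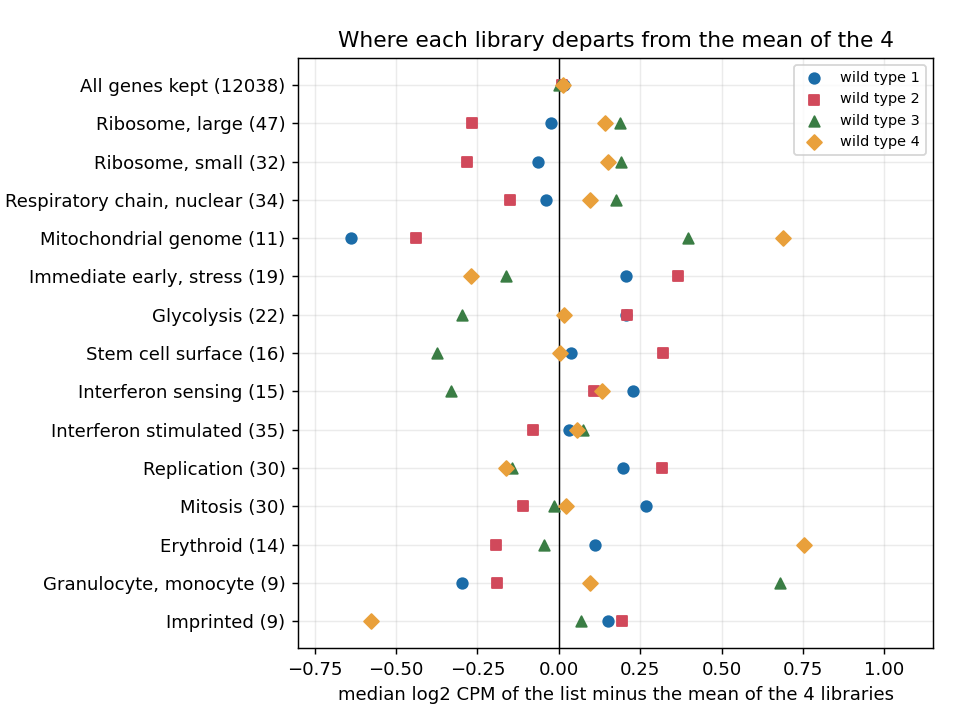
Median log2 CPM of 15 groups of genes minus the mean of the 4 libraries (horizontal axis), 1 marker per library, with the number of genes in brackets. All genes together lie at 0, the ribosomal lists are lowest in wild type 2, the mitochondrial genome is highest in wild type 4 and stem cell surface genes are lowest in wild type 3.

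GC content moved with some of these departures. For 9526 genes averaging 5 CPM or more with a known transcript, Pearson's r across genes between a library's departure and transcript GC content was 0.172, 0.269, -0.329 and -0.026 in wild type 1 to 4. Of 165 genes averaging 16 CPM or more whose libraries spanned 4 times, wild type 3 was the library farthest from the median in 106, on the low side in 98 of them. These 98 genes had a median GC content of 53.4%, the other 67 of 44.9% and all genes of at least 16 CPM of 47.3%. Among them were Klf1, Itgb2, Gp5, Tap2, Pfkl, Fos and Dusp1. The glycolysis and stem cell surface lists had median GC contents of 52.7% and 52.1%. The MHC class I, transcription factor and erythroid lists, at 53.4%, 52.7% and 52.5%, stood at only -0.04, -0.10 and -0.04 in wild type 3. The mitochondrial genome had 35.8% and was highest in wild type 4, where r was -0.026. The ribosomal lists, at 51.96% and 50.8%, were above 0 in wild type 3 all the same. The part of base composition in these results was not tested.

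Non-coding, histone, imprinted and other lists covered the rest. Malat1, a nuclear long non-coding RNA, had 1052, 1409, 1711 and 3702 CPM, highest in wild type 4, and Gas5, a host of small nucleolar RNAs, had 396, 423, 562 and 621 CPM. Of 23 non-coding RNAs, 12 passed, and H19, Mirg and Rmrp had no fragment. Histone genes, whose mRNAs mostly lack a poly(A) tail and are kept by ribosomal depletion, passed in 13 of 20 cases, with Hist1h1b at 91.2 ± 29.5 CPM per kilobase, and as near-identical copies their levels are uncertain. Of 19 imprinted genes, 8 passed, led by Impact at 19.1 ± 3.97 CPM per kilobase, and H19, Rtl1, Peg3, Plagl1, Zim1 and Ascl2 had no fragment in any library. Grb10, an imprinted adaptor protein, had 73.7, 72.1, 50.3 and 31.1 CPM. Of 16 apoptosis genes, 9 passed, with Bax and Bid at 40.9 ± 2.71 CPM per kilobase and 37.8 ± 5.24 CPM per kilobase and the survival gene Mcl1 at 31.3 ± 4.04 CPM per kilobase. Bcl2l1 (BCL-XL) had the widest range of the 7 members with a mean of at least 5 CPM, with 18.7, 27.6, 4.43 and 10.1 CPM. Of 16 niche signalling genes, 10 passed, among them Angpt1, the ligand of TEK, with 679.8, 800.5, 776 and 701 CPM, while Thpo had no fragment. Of 24 regulators of chromatin and splicing, 23 passed, with U2af1 highest at 272 ± 38.8 CPM per kilobase and Tet2 and Tet3 low at 7.75 and 6.74 CPM on average. Dnmt3a and Dnmt3b had 40.7, 32.7, 35.03 and 39.9 CPM and 50.4, 38.7, 45.4 and 30.8 CPM. All 21 housekeeping genes passed and none reached 4 times between libraries, against 7.6% of all genes averaging 5 CPM or more. The share of all genes falls with level, to 0.322% from 100 to 1000 CPM, and was not matched to this abundant list.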

How the data were processed

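Per the labels' protocols, rRNA was removed from total RNA (30 to 260 ng, RIN above 8) of the sorted cells, and stranded libraries (11 PCR cycles) were read as 75-base pairs. Trim Galore, cutadapt and STAR 2.5.1b were used on GRCm38, according to the submitters' processing notes. The deposited values are raw fragment counts per gene of GENCODE M17 from featureCounts in reverse-stranded mode with both ends mapped, per the file headers, which name version 1.6.2 where the notes name 1.5.1. Multi-mapping fragments, and those shared by overlapping genes, are not counted by the recorded command. The deposited exon length per gene is in bases, per the file headers.

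Counts were scaled by TMM factors of the 4 libraries (edgeR 4.0.16, R 4.3.3, factors 0.930 to 1.06) to CPM, and divided by exon length. Log2 CPM carries a prior count of 2. No groups were compared and no gene was tested. The biological coefficient of variation is the square root of edgeR's common dispersion after filterByExpr, checked on simulated counts. Symbols, biotypes and GC content came from GENCODE M21 of the same build (95 of 53715 identifiers had none), and promoters from RefSeq (GRCm38.p6), matched for 16496 of 21890 protein-coding genes by symbol and chromosome, first entry per symbol. DESeq2 1.42.0 gave alternative size factors.

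The members and 38 gene lists were chosen with earlier results of these data known. The genes named are the sort markers, the 15 highest by CPM and per kilobase, up to 5 highest and 2 lowest of each list, up to 2 per list with the widest range at a mean of at least 5 CPM, and the 10 widest and 10 steadiest genes of at least 16 CPM, predicted models left out (0 were met). Other names were chosen after their values were seen, and a few genes that this rule takes are not reported here. Motifs were searched by their letters on both strands, and none contains another. Coordinates of genes are those of the deposited files.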

Additional observations from a re-analysis of the deposited data

Results flagged for a closer look

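Each gene named by the rule and each list's sum was screened for 1 library standing apart from the other three, by the gap to the nearest of them as a share of the whole range (Dixon's 95% critical value). The screen covered 290 named genes with a fragment and 38 lists and met 24. Chance flags about 1 in 20 for normal values that were not chosen by their spread. Some of these genes were chosen for a wide range or a low level in the same libraries. The 24 can therefore not be set against that rate. Causes were not tested.

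Among genes with a level in every library, Gbp4 (interferon-inducible GTPase) had 42.7 CPM in wild type 4 and 7.34 to 9.77 CPM in the others, and Pecam1 (CD31) had 54.3 CPM there and 30.7 to 34.3 CPM in the others. Wild type 3 was high for S100a8 with 93.2 CPM (others 29.9 to 34.9) and S100a9 with 31.1 CPM (others 7.93 to 9.48), both calcium-binding proteins of neutrophils. It was also high for Hsp90aa1 with 1661 CPM (others 851 to 989), Gmnn (geminin) with 138 CPM (others 82.0 to 88.4) and Pcna with 513 CPM (others 378 to 388). It was low for Hk1 (hexokinase 1) with 10.9 CPM (others 24.9 to 25.3), for the sum of the adhesion and homing list with 943 CPM (others 1092 to 1115) and for the sum of the apoptosis list with 372 CPM (others 425 to 436). Wild type 1 was high for Rrm2 with 294 CPM (others 180.1 to 191) and low for Bid, a trigger of apoptosis, with 106 CPM (others 140.4 to 145) and for the sum of the mast cell, basophil and eosinophil list with 51.8 CPM (others 79.9 to 83.0). Wild type 2 was low for Rpl4 with 2228 CPM (others 2426 to 2435).

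The other genes were at or near 0 in 3 libraries. Wild type 1 had 1.57 CPM of Bik, wild type 2 had 0.942 CPM of Cd4 and 1.34 CPM of Mx2, and wild type 4 had 2.61 CPM of Adipoq (adiponectin of fat cells) and 0.449 CPM of Cd3d. Wild type 3 had 0.195 CPM of Bmf, 1.41 CPM of Cdh2, 0.389 CPM of Egr2, 0.924 CPM of Gp6 and 0.681 CPM of Ly86.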

How the results depend on the processing

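Of 498 alternative values of the main results, 480 stayed within the spread between replicates or 1.5 times the count, 17 moved and 1 changed sign. Leaving out 1 of 4 libraries shifts a mean by less than their SD, apart from small changes in scaling. List sums and the share of the most abundant genes were thus bound to stay in that setting. The limit of 1.5 times the count is wide as well, so the 480 do not measure robustness. Genes at 1 CPM in all 4 libraries numbered 10982, and 14967 with 1 CPM in any library, 13359 with 3 counts, 8227 with 5 CPM and 10965 with library sizes alone. Leaving out 1 library gave 11181 to 11404, since fewer libraries must pass. The biological coefficient of variation of 0.357 was 0.749 with no filter beyond 1 count, 0.269 at a mean of at least 16 CPM, and 0.326 to 0.372 with 1 library left out, lowest without wild type 3. The median correlation between libraries of 0.949 was 0.929 at a mean of at least 16 CPM. With the longest transcript in place of all exons the median per kilobase was 22.98 for stem cell identity, 13.02 for transcription factors, 31.3 for interferon-stimulated genes, 123 for MHC class I, 39.3 for replication, 449 and 707 for the large and small ribosomal subunits and 279 for the respiratory chain, all higher than with all exons because the length is shorter. With protein-coding genes outside the mitochondrial genome as the library size, the transcription factor median was 10.7 and the summed translation list 16367 CPM against 15748. The mitosis median was 19.98 to 23.4 with 1 library left out, lowest without wild type 1. The departure of the interferon-stimulated genes in wild type 2 changed from -0.08 to 0.00526 with library sizes alone. Over all genes in place of protein-coding ones, 19.1% of those with no fragment held the GC box and 20.7% the TATA box. No paired analysis was possible because 1 group was described and no test was made. Counting error was below the median spread at every level, and levels under about 0.149 CPM could not be told from 0.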
